A study of Homo sapiens with 12 samples.

Results

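The domain described here is the stretch 128200000 to 129300000 of chromosome 8, which holds the oncogene MYC and the long non-coding RNA gene PVT1. Its members were all called H3K27ac peaks that overlapped this stretch, and there were 202 of these among the 190767 peaks called on chromosomes 1 to 22 and X in 6 ChIP-seq libraries. Positions are in the hg19 build throughout. The stretch was split into 4 parts around the gene positions given with the rule, MYC at about 128748300 to 128753700 and PVT1 at about 128806800 to 129113500. The upstream part was 543.3 kb long. The MYC part ran from 5 kb before MYC to 5 kb before PVT1 (58.5 kb), the PVT1 part from there to the end of PVT1 (311.7 kb), and the downstream part over the last 186.5 kb.

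The libraries came from BxPC3, Panc327 and SUIT2, 3 human pancreatic ductal adenocarcinoma cell lines kept in standard culture without treatment. The study's title concerns SIRT6 and the integrated stress response, but no genotype, drug or time point was named for any of these groups. Each line is a single tumour's cells, so a difference between lines is a difference between these cultures. Per line there were 2 H3K27ac samples and 2 inputs of unselected chromatin, 12 samples in all; no peak list of an input was analysed here, and how the inputs entered the peak calling is not given in the sources used here. The labels do not say whether the replicates were separate cultures, so the spread between them may be technical.

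MYC encodes a transcription factor that drives ribosome production, metabolism and cell division, and in pancreatic cancer it acts downstream of RAS signalling. It is a textbook case of a gene ruled by distant enhancers: the wide gene-poor flanks on both sides carry elements that loop to its promoter, and different tissues use different ones. PVT1 starts downstream of MYC on the same strand, yields spliced and circular non-coding RNAs, and carries enhancers within its introns; its promoter is known to compete with that of MYC for enhancers. H3K27ac, placed by the acetyltransferases p300 and CBP, marks active promoters and enhancers. In the RefSeq gene table of the GRCh38.p14 assembly, used for names and order alone, the genes before MYC were, going outward, CASC11, LOC105375754, POU5F1B, CCAT2, CASC8, CASC21 and CCAT1. All were long non-coding RNA genes but POU5F1B, a retrogene related to OCT4. PVT1 was the next gene after MYC, and MIR1204, MIR1205, MIR1206 and MIR1207 lay within it.

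The 6 peak lists were not equally sensitive, and the Panc327 libraries stood apart from each other. No listed peak fell below a −log10 p of 10, and the lowest read pile-up that still gave a peak was between 14 reads (Panc327 replicate 1) and 21 reads (SUIT2 replicate 2). Pile-ups were recovered from the deposited values, as described under the processing. The genome-wide background, taken as the lowest background of each list, was 1.46 reads per position in Panc327 replicate 1. It was 1.96 to 2.85 in Panc327 replicate 2 and the BxPC3 libraries, and 3.29 and 3.61 in SUIT2. It follows depth only after the caller's scaling. The fitted scales of the pile-ups were 0.752 and 0.652 in BxPC3 and 1.0 in the other lists, so these values do not rank the libraries by sequencing depth. A missing peak therefore means that the signal stayed under that library's threshold, not that the mark was absent. With 2 libraries against 2 an exact permutation test cannot give a p under 0.333, so lines are compared by their values and no test was made between them.

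H3K27ac covered more of the domain in SUIT2 than in BxPC3. Replicates 1 and 2 had 35 and 38 peaks in the domain for BxPC3, 28 and 35 for Panc327, and 32 and 34 for SUIT2, and every pair of values below is in that order of replicates. These peaks covered 52.2 and 57.6 kb in BxPC3, 22.3 and 85.9 kb in Panc327, and 84.2 and 87.5 kb in SUIT2. Both SUIT2 libraries lay above both BxPC3 libraries, and the means were 85.8 ± 2.35 kb and 54.9 ± 3.79 kb (SD, n = 2). The Panc327 libraries spanned almost the whole range, one below all others and one within reach of SUIT2. As a share of everything a library covered, the domain took 0.107 and 0.105% in BxPC3, 0.0654 and 0.185% in Panc327, with 0.140 and 0.138% in SUIT2. The SUIT2 share was thus above the BxPC3 share as well. With 100 kb taken off each end of the domain, SUIT2 covered 52.7 kb and BxPC3 38.2 kb. This cut removes the block described below and the regions 488.3, 482.0 and 469.8 kb before MYC. The cut lengths were not put as shares of the whole lists, which covered 60.1 and 63.3 Mb in SUIT2 and 48.7 and 54.6 Mb in BxPC3.

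The domain was among the better covered stretches of the genome in every library. Of 2743 tiles of 1100 kb laid over the chromosomes, 7.29 and 7.40% held at least as much covered length as the domain in the BxPC3 libraries, 16.0 and 1.97% in Panc327, with 3.50 and 3.57% in SUIT2. The domain covered 4.49 times (Panc327 replicate 1) to 10.6 times (Panc327 replicate 2) as much as the median tile, with tiles without a peak counted. The median tile held 4.97 kb (Panc327 replicate 1) to 13.3 kb (SUIT2 replicate 2). Over tiles with a peak it was higher, 7.97 to 18.7 kb in the same libraries, so the factors are smaller against those.

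**Figure D1:**
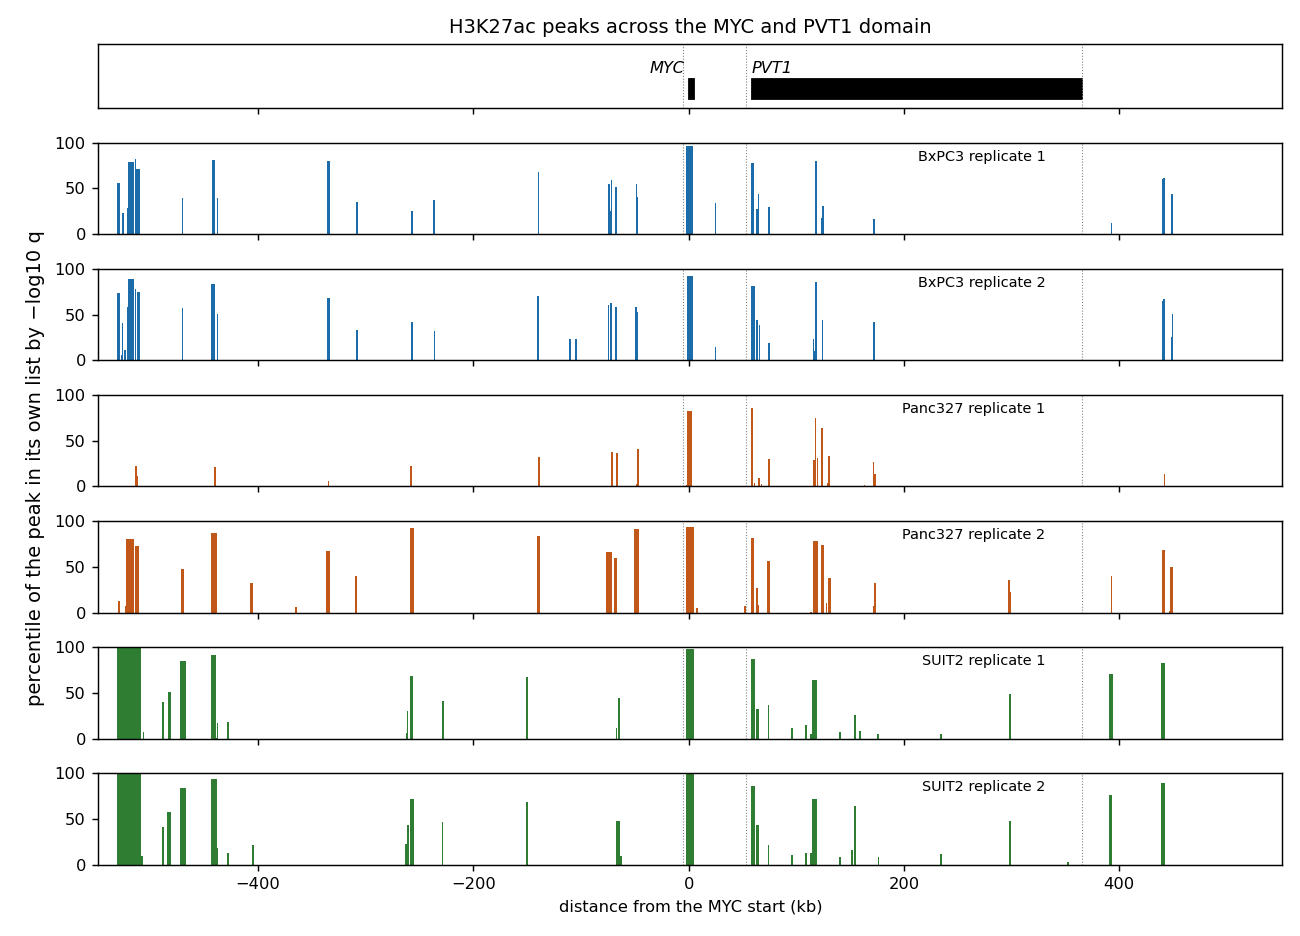
Map of the called H3K27ac peaks in the 6 libraries, against distance from the MYC start in kb; bar height is the peak's percentile in its own list by −log10 q, bar width is the peak's width (drawn at least 1.5 kb wide), and dotted lines part the upstream, MYC, PVT1 and downstream parts. All 6 libraries have a high peak at MYC and at the PVT1 start, and SUIT2 alone has 1 block of 22.5 and 22.6 kb at the far left.

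The MYC promoter was marked in all 6 libraries and was the strongest or second strongest peak of the domain in each. The peak over the MYC start was 6140 and 5948 bp wide in BxPC3, 4888 and 7112 bp in Panc327, and 7861 and 7932 bp in SUIT2. The SUIT2 peaks were the widest, and the BxPC3 widths fell between the Panc327 ones. It reached from 1.30 kb before the start in Panc327 replicate 1, the narrowest, or 2.75 kb in SUIT2 replicate 1, the furthest, into the gene by 3.59 to 5.19 kb. The summits lay 351 to 788 bp after the MYC start, within a span of 437 bp over the 6 libraries.

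The authors' fold over local background at the MYC peak was 55.9 and 34.0 in BxPC3, 82.0 and 24.3 in Panc327, with 92.7 and 156.6 in SUIT2. These folds depend on depth and on the background at the spot, so each is read within its own list. By −log10 q the peak stood at percentile 96.8 and 92.1 of the BxPC3 lists, 82.3 and 93.2 of the Panc327 lists, and 98.2 and 99.4 of the SUIT2 lists. It ranked first in the domain in both BxPC3 libraries, Panc327 replicate 2 and SUIT2 replicate 2. It came second to the PVT1 start in Panc327 replicate 1 and to the far upstream block in SUIT2 replicate 1.

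Between MYC and the PVT1 start little else was called. A BxPC3-only region lay 24.8 kb after the MYC start, at 128772615 to 128773290, with folds of 11.0 and 5.54 and widths of 613 and 625 bp. Panc327 replicate 2 alone had 2 narrow peaks there, of 677 and 487 bp. After the MYC region, Panc327 replicate 1 and both SUIT2 libraries had no further peak in the MYC part. Covered length in the MYC part was close in all lines, 6.75 and 6.57 kb in BxPC3, 5.17 and 8.28 kb in Panc327, and 7.86 and 7.93 kb in SUIT2.

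**Figure D2:**
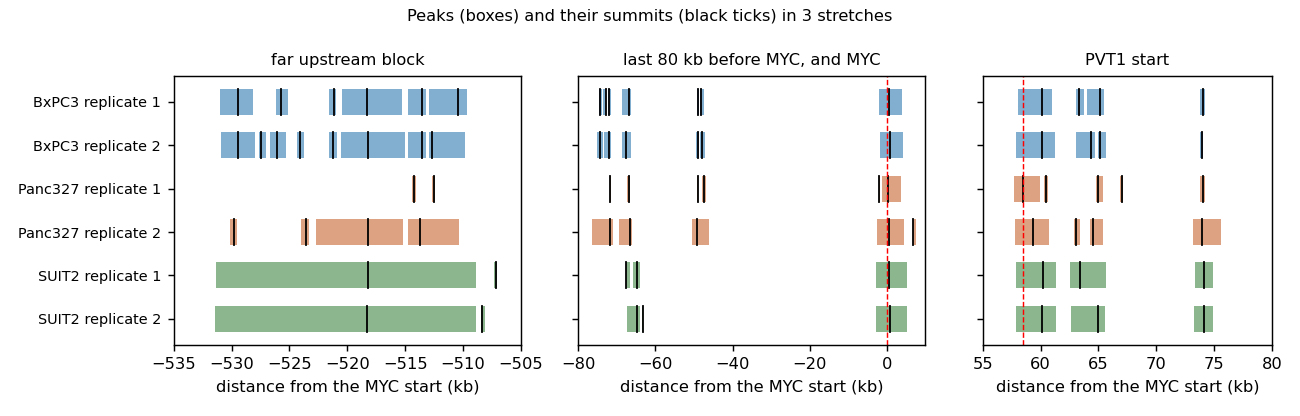
Peaks (boxes) and summits (black ticks) of the 6 libraries in 3 stretches, against distance from the MYC start in kb; red dashed lines are the MYC and PVT1 starts. SUIT2 shows 1 unbroken box far upstream and has no box at 71.9 and 49.1 kb before MYC, where both BxPC3 and both Panc327 libraries have peaks.

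The PVT1 start was the next promoter in every library. Its peak was 3016 and 3366 bp wide in BxPC3, 2199 and 2895 bp in Panc327, and 3471 and 3428 bp in SUIT2, with folds of 29.6 and 29.4, 107.0 and 18.6, and 58.4 and 59.3. Its percentiles lay between 77.8 (BxPC3 replicate 1) and 86.7 (SUIT2 replicate 1), a narrow range over the 6 lists. In Panc327 replicate 1 it was the strongest peak of the domain; in the other 5 libraries it ranked 4 to 7.

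Relative to MYC, the PVT1 start was weaker in 5 of the 6 libraries. The fold at PVT1 divided by the fold at MYC was 0.529 and 0.864 in BxPC3, 1.31 and 0.763 in Panc327, with 0.630 and 0.379 in SUIT2. In this ratio of folds the ranges of BxPC3 and Panc327 overlapped, as did those of BxPC3 and SUIT2. Each fold is divided by its own local background, so the ratio also carries the backgrounds of both peaks. The recovered pile-ups were 222.5 and 271.1 at MYC against 117.3 and 175.3 at PVT1 in BxPC3. They were 255 and 146 against 265 and 111 in Panc327, and 668 and 751 against 391 and 395 in SUIT2. How far the backgrounds bear on the ratio was not tested. The place of the summit also varied. It lay 1667 and 1653 bp after the PVT1 start in BxPC3 and 1680 and 1667 bp after it in SUIT2, so these 4 libraries met within 27 bp. The Panc327 summits lay 23 and 834 bp after the start, nearer to it than in the other lines and apart from each other. Panc327 replicate 1 had a second, separate peak of 295 bp here, with its summit at 128808792.

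Inside the PVT1 span, the leading element beyond the start lay 59.9 kb after the start, at 128862830 to 128868967, with a peak in all 6 libraries. Its peaks covered 3.04 and 3.67 kb in BxPC3, 2.54 and 5.56 kb in Panc327, and 4.82 and 5.09 kb in SUIT2. The folds were 35.2 and 49.6, 69.7 and 19.1, and 27.4 and 43.1. The summits of BxPC3 and Panc327 replicate 2 fell within 35 bp of each other and the SUIT2 summits 323 and 285 bp away. Regions 5.90 and 15.4 kb after the PVT1 start also had a peak in all 6 libraries, with top folds between 6.38 and 13.6.

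The 3′ neighbour of that element separated the lines. A region 65.8 kb after the PVT1 start, at 128870980 to 128874503, was marked in BxPC3 with folds of 10.3 and 13.1 and in Panc327 with folds of 42.0 and 21.0, and no SUIT2 library called it. At percentiles of 63.6 and 73.4 it was one of the stronger elements of the Panc327 lists, against 31.0 and 44.2 in BxPC3. Next to it lay Panc327-only regions at 128875786 to 128877049 and 128877516 to 128880758. The wider of them, 3243 bp, had folds of 14.4 and 8.77. A last Panc327-only region lay at 128920537 to 128921086.

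SUIT2 had 6 regions of its own inside PVT1, all of them narrow, from 352 to 1025 bp. The widest, at 128901992 to 128903016, had folds of 8.82 and 12.2 and was the single one of the 6 that stayed SUIT2-only at a −log10 q of at least 20. Its −log10 q was 28.9 and 213.1, at percentiles 26.0 and 64.6, so the replicates were further apart by q than by fold. In replicate 2 a peak with a fold of 13.9, at 128680854 to 128684243, had a −log10 q of only 81.7. The pile-up and background of the replicate 2 peak could not be recovered. A further region 240.2 kb after the PVT1 start, at 129044959 to 129048232, was called in SUIT2 with folds of 19.5 and 15.03 and in Panc327 replicate 2 with 8.47. Neither BxPC3 library had a peak in PVT1 beyond 128920173. PVT1 covered length was 10.04 and 11.4 kb in BxPC3, 11.5 and 23.2 kb in Panc327, and 19.2 and 19.1 kb in SUIT2; both BxPC3 values lay below all others.

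**Figure D3:**
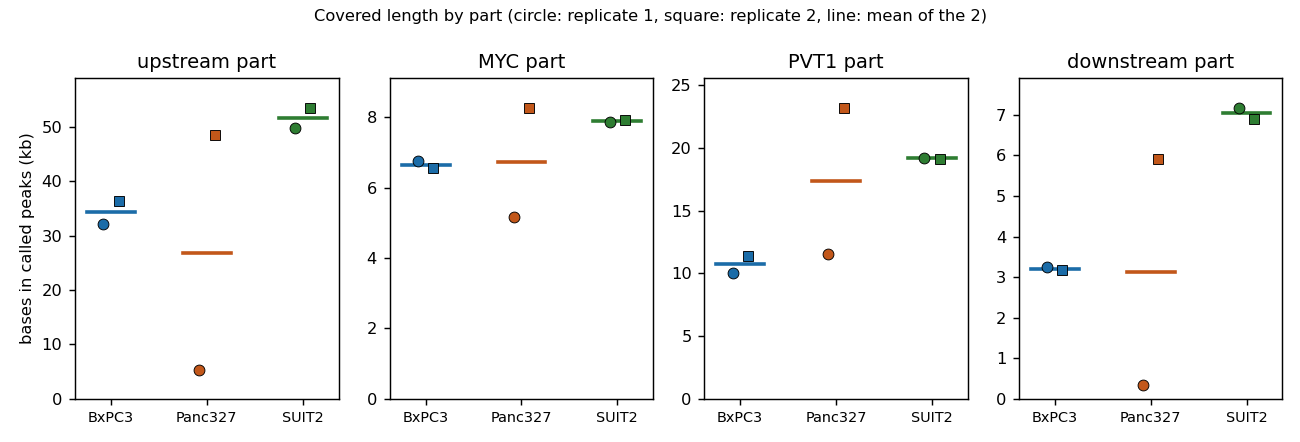
Length in called H3K27ac peaks (kb) in each part of the domain, for each line; circles are replicate 1, squares replicate 2 and lines the mean of both. SUIT2 lies above BxPC3 in all 4 parts, and the Panc327 replicates are far apart, at 5.31 and 48.5 kb upstream.

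Most of the covered length lay upstream of MYC. The upstream part covered 32.2 and 36.4 kb in BxPC3, 5.31 and 48.5 kb in Panc327, and 49.9 and 53.6 kb in SUIT2. With 100 kb taken off each end the line means were 17.6 kb in BxPC3 and 18.6 kb in both Panc327 and SUIT2, so the upstream excess of SUIT2 over BxPC3 lay mostly in the outermost 100 kb. The upstream part made up 56.4 to 63.3% of the covered length of the domain in 5 libraries and 23.8% in Panc327 replicate 1.

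The leading upstream element was a block about 518 kb before MYC, at 128216888 to 128239458. In SUIT2 it was called as 1 unbroken peak of 22487 bp in replicate 1 and 22567 bp in replicate 2. By width these ranked 39 of 29983 and 43 of 31421 SUIT2 peaks. Their folds were 110.3 and 124.2, at percentiles 98.7 and 98.9. BxPC3 called the same stretch as a row of separate peaks covering 14.5 and 16.4 kb, with top folds of 32.4 and 37.3 and percentiles of 82.1 and 88.8. Panc327 replicate 2 covered 13.3 kb of it with a fold of 17.4, and Panc327 replicate 1 only 0.626 kb with a fold of 11.0. The SUIT2 libraries were thus highest and widest here, and Panc327 replicate 1 was lowest.

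In this block 5 libraries from all 3 lines had a summit at the same place. The strongest was at 128230034 in SUIT2 replicate 2, and the nearest summits of SUIT2 replicate 1, both BxPC3 libraries and Panc327 replicate 2 lay 2 to 47 bp away. The nearest Panc327 replicate 1 summit lay 4001 bp away. The region 441.6 kb before MYC, at 128304377 to 128310912, showed the same picture, with the summits of those 5 libraries within 71 bp of the strongest. Its folds were 32.02 and 36.7 in BxPC3, 9.57 and 19.99 in Panc327, with 68.5 and 67.8 in SUIT2.

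Between these blocks lay SUIT2-only regions 488.3 and 482.0 kb before MYC. The second, at 128264101 to 128267197, had folds of 16.3 and 23.3. A region 469.8 kb before MYC, at 128276102 to 128281445, was covered over 5193 and 5344 bp in SUIT2 and 1248 and 1253 bp in BxPC3. There the folds were 64.5 and 64.7 in SUIT2 against 8.69 and 15.6 in BxPC3, with percentiles of 84.6 and 84.0 against 39.2 and 56.7. Panc327 replicate 2 called 2616 bp and replicate 1 none.

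Closer to MYC, 4 upstream regions were called in BxPC3 and Panc327 and not in SUIT2. A region 335.0 kb before MYC, at 128411655 to 128415403, was marked in BxPC3 with folds of 38.4 and 17.1 and percentiles of 80.2 and 68.5. The BxPC3 pile-ups there were close, 113.5 and 118.6, and the local background was 1.01 and 2.53 times the lowest of the list. Panc327 called it with folds of 8.46 and 16.3, and SUIT2 had no peak. Regions 139.3, 71.9 and 49.1 kb before MYC were likewise called in all 4 BxPC3 and Panc327 libraries and in neither SUIT2 library. At 139.3 kb (128607469 to 128609899) the folds were 24.5 and 26.2 in BxPC3 and 13.2 and 19.6 in Panc327. At 71.9 kb (128671959 to 128677410) they were 18.3 and 21.96, and 13.6 and 10.5. At 49.1 kb (128697904 to 128702094) they were 15.3 and 16.4, and 13.7 and 23.4, and this was the third strongest region of Panc327 replicate 2 in the domain, at percentile 91.6. These 4 regions reached percentiles between 5.82 and 91.6 in the 4 libraries that called them. At a −log10 q of at least 20 the regions at 139.3, 71.9 and 49.1 kb stayed missing from SUIT2 alone, and the region at 335.0 kb did not, because the Panc327 replicate 1 peak there fell under that threshold.

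SUIT2 had other elements in the same stretch. A SUIT2-only region 150.0 kb before MYC, at 128597434 to 128599471, had folds of 38.8 and 35.6 and percentiles of 66.8 and 68.2, with its summit at the same base in both libraries. It ended 8.0 kb before the region at 139.3 kb that only the other lines called. Another SUIT2-only region lay 228.9 kb before MYC, with folds of 13.5 and 15.3. One 260.7 kb before MYC, at 128486288 to 128488139, had folds of 9.36 and 14.7 at percentiles 30.1 and 43.2, and it stayed SUIT2-only at a −log10 q of at least 20. The SUIT2-only regions 262.7 and 428.5 kb before MYC were narrower, 598 and 882 bp, and did not. The region 66.6 kb before MYC, at 128678790 to 128684251, was called in all 6 libraries, with folds from 13.0 to 19.0. Its strongest summits in SUIT2 lay at 128683431 and 128683468, downstream of the BxPC3 and Panc327 summits, which all lay between 128680777 and 128681734. SUIT2 replicate 1 also had a weaker peak of 975 bp there, with its summit at 128680772.

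One upstream region was strongest in SUIT2 and Panc327 replicate 2 and weak elsewhere. It lay 256.9 kb before MYC, at 128489647 to 128492791, and was covered over 742 and 1010 bp in BxPC3, 664 and 3145 bp in Panc327, and 2928 and 3065 bp in SUIT2. In Panc327 replicate 2 it stood at percentile 92.2, its second strongest peak in the domain. BxPC3 had a single upstream region of its own, at 128511250 to 128511748, with folds of 12.1 and 10.4.

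Downstream of PVT1, all 6 libraries called a region 440.2 kb after the MYC start, at 129187140 to 129190884. The folds were 18.3 and 22.7 in BxPC3, 9.40 and 14.2 in Panc327, with 57.1 and 78.1 in SUIT2, and the covered lengths 1630 and 2057, 338 and 2533, and 3634 and 3735 bp. A region at 129138770 to 129142328 was covered over 3544 and 3156 bp in SUIT2 with folds of 36.1 and 47.5. BxPC3 replicate 1 covered 294 bp of it, Panc327 replicate 2 covered 777 bp, and the other libraries had no peak. In reverse, a region at 129195829 to 129198057 was marked in both BxPC3 libraries and Panc327 replicate 2 and in no SUIT2 library. Downstream covered length was 3.25 and 3.17 kb in BxPC3, 0.338 and 5.90 kb in Panc327, and 7.18 and 6.89 kb in SUIT2. From 129198058 to the end of the domain, 102.0 kb, no library had a peak. The next longest empty stretch, 76.6 kb, ran from 128520850 to 128597433.

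Overlapping peaks (1 bp or more in common) from the 6 lists were joined, which gave 56 regions in the domain and 58994 in all. A region counted as marked in a line when both its libraries had a peak, and 40 of the 56 were marked in at least 1 line, against 43240 in all. The percentages that follow are shares of marked regions, for the domain and then over all chromosomes. A peak in all 6 libraries was found in 10 regions of the domain (25%, against 29.4%): 4 upstream, 1 at MYC, 4 in PVT1 and 1 downstream. SUIT2-only regions numbered 13 (32.5%, against 17.7%), BxPC3-only regions 2 (5%, against 17.6%) and Panc327-only regions 3 (7.5%, against 7.9%). Regions marked in both other lines without a peak in SUIT2 numbered 6 (15%, against 5.21%). No region of the domain was missing from BxPC3 alone (against 1.6%) or from Panc327 alone (against 5.71%). The last 6 were marked in at least 1 line while the libraries of another line disagreed (15%, against 14.8%).

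SUIT2 held a larger share of the domain's line-only regions, and of its missing ones, than over the genome, and BxPC3 a smaller share of line-only ones. Regions of 1 domain are neighbours and not replicates, so these shares are a description. The SUIT2-only count fell from 13 to 6 at a −log10 q of at least 20, and to 8 when every list was cut to an equal number of peaks. All 13 SUIT2-only regions were under 3.1 kb wide, and 7 of them were under 1 kb. The 6 SUIT2-missing regions, 4 upstream and 2 in PVT1, became 4 at that threshold. They became 0 when a library had to cover 50% of a region, since none of them was covered that far in all 4 BxPC3 and Panc327 libraries. When 1 library was left out, its line was judged on the other library alone, so a region could be marked or unmarked more easily. SUIT2-only regions were then 18 without SUIT2 replicate 1, 16 without SUIT2 replicate 2 and 15 without Panc327 replicate 2. BxPC3-only regions were 4 without BxPC3 replicate 1 and 5 without Panc327 replicate 2. Panc327-only regions were 7 without Panc327 replicate 1 and 5 without replicate 2. Leaving out Panc327 replicate 1 also gave 2 BxPC3-missing regions. Panc327 had 1 missing region without its replicate 2 and 1 without BxPC3 replicate 1. The shares over all chromosomes were set beside the main setting only. Whether the SUIT2 shares of the domain stay above them under these alternatives was not tested.

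**Figure D4:**
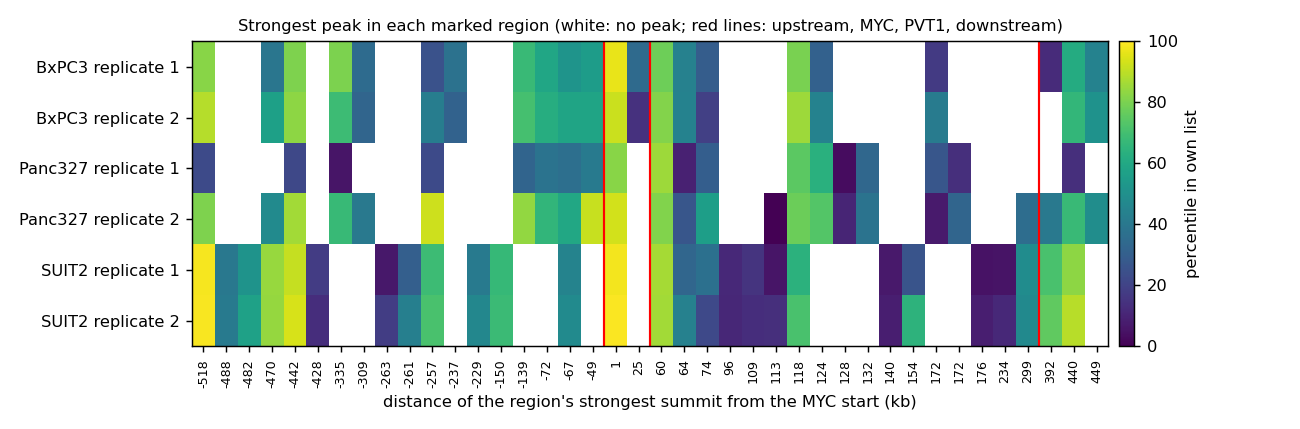
The 40 marked regions of the domain in order, labelled by the distance of their strongest summit from the MYC start in kb; colour is the percentile of the strongest peak in each library's own list, white means no peak, and red lines part the upstream, MYC, PVT1 and downstream parts. Among the stronger regions upstream of MYC, the SUIT2 rows are white at 335.0, 139.3, 71.9 and 49.1 kb before MYC and alone filled at 488.3, 482.0, 260.7, 228.9 and 150.0 kb before it.

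Counted in bases, 133.0 kb of the domain lay in a peak of at least 1 library and 12.2 kb in a peak of all 6. Of the 12.2 kb, 4.92 kb lay in the MYC part and 5.27 kb in the PVT1 part, and 1.68 kb in the upstream part. BxPC3 had 48.7 kb called in both its libraries, of which 3.06% had no peak in any other line. In SUIT2 80.3 kb was called in both libraries and 32.8% of it in no other line, and in Panc327 20.4 kb and 12.9%. No such shares over all chromosomes are given here, so these are not read as a trait of the domain. The SUIT2 lists also covered the most over all chromosomes, 60.1 and 63.3 Mb, against 34.1 to 54.6 Mb in the other lists. The place of the shared bases was set by Panc327 replicate 1. Without it 30.6 kb lay in a peak of all other libraries, 16.0 kb of it upstream, 5.84 kb in the MYC part and 7.09 kb in the PVT1 part. The bases of SUIT2 alone lay mainly upstream, 18.1 of 26.4 kb, with or without Panc327 replicate 1.

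The disagreement between the Panc327 libraries was larger here than over all chromosomes. Their Jaccard index, the length called in both over the length called in either, was 0.233 in the domain and 0.519 over all chromosomes. The BxPC3 pair had 0.797 and 0.814, and the SUIT2 pair 0.880 and 0.868. By this index Panc327 replicate 2 was closer to the BxPC3 libraries (0.482 and 0.494) than to the other Panc327 library. By part, the Panc327 index was 0.625 at MYC, 0.383 in PVT1, 0.110 upstream and 0.0573 downstream. The index is low where covered lengths are unequal, even when the shorter cover lies inside the longer. Of the 22.3 kb covered by Panc327 replicate 1, 20.4 kb was also covered by replicate 2, which covered 85.9 kb. Upstream and downstream, all of the replicate 1 cover (5.31 and 0.338 kb) lay in replicate 2 peaks.

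The Panc327 libraries differed in the width of their peaks and in which regions they called. Both Panc327 libraries had a peak in 19 regions, and replicate 2 covered more than replicate 1 in 17 of them, by a median of 3.19 times. Over all chromosomes replicate 2 covered more in 67.6% of 19894 such regions, by a median of 1.19 times. The ratio was 21.2 at the far upstream block, 13.0 at the region 71.9 kb before MYC, 1.37 at the MYC peak and 1.16 at the PVT1 start. Replicate 2 alone called 11 regions, of which 3 were also marked in BxPC3 and 4 in SUIT2, and replicate 1 alone called 2, which no other line had. Depth moved with this difference, at 1.46 and 2.85 background reads in replicates 1 and 2. The pile-ups did not all move the same way. They were 255 and 146 reads at the MYC peak and 265 and 111 at the PVT1 start. At the strongest peaks of the far upstream block they were 33 and 113. The part of depth in these differences was not tested.

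**Figure D5:**
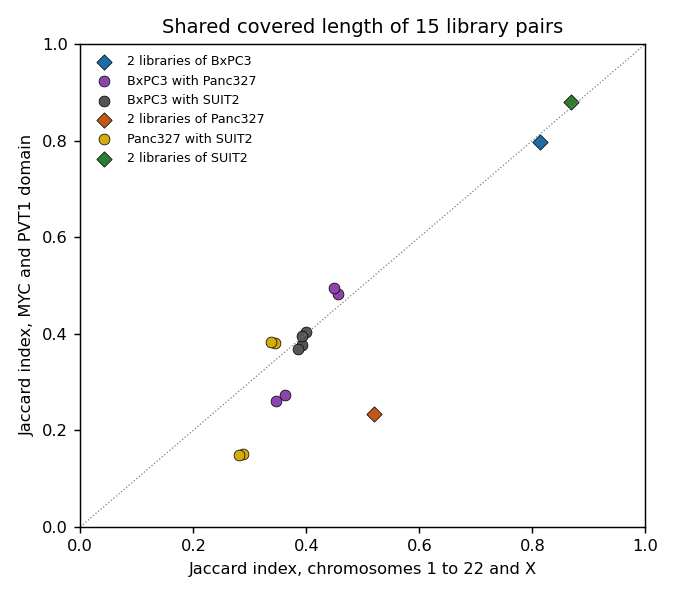
Jaccard index of covered length for the 15 pairs of libraries, in the domain (vertical axis) against chromosomes 1 to 22 and X (horizontal axis); diamonds are libraries of 1 line, circles libraries of different lines, and the dotted line marks equal values. The Panc327 pair lies far below the line at 0.233 and 0.519, and the SUIT2 and BxPC3 pairs lie close to it.

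Between lines, the index in the domain averaged 0.386 for BxPC3 with SUIT2, 0.378 for BxPC3 with Panc327 and 0.266 for Panc327 with SUIT2, each over 4 pairs that share libraries. The matching values over all chromosomes were 0.392, 0.403 and 0.312. Without Panc327 replicate 1, the mean over the BxPC3 and SUIT2 pairs was 0.839, against 0.637 with the Panc327 pair, and that over pairs of different lines was 0.410, against 0.343. Covered length in Panc327 was then 85.9 kb and without replicate 2 it was 22.3 kb, so the place of Panc327 among the lines was set by which library was used.

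The strongest summits in the regions shared by all 6 libraries were spread more widely in the domain than over all chromosomes. The strongest summits of the 6 libraries lay within 200 bp of each other in 1 of the 10 regions, the one 15.4 kb after the PVT1 start, against 44.6% of 12721 such regions over all chromosomes. The median span was 1254.5 bp in the domain and 250.0 bp over all chromosomes. Only the strongest summit of each library in a region was used, so a wide region with several peaks can give a wide span. At the far upstream block the span was 4742 bp, although 5 libraries had a summit within 47 bp of the strongest. How far region width bears on the spans was not tested. For the SUIT2 pair the summits agreed within 200 bp in 8 of the 10, and for the Panc327 pair in 2, with a median span of 776.5 bp, against 69.3% over all chromosomes.

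The caller's local background was somewhat higher across the domain than in the lists as a whole, in all 3 lines. Whether it was taken from the inputs is not stated, so it is not read as a measure of input DNA. It is expressed as the ratio of a peak's local background to the lowest background of its list, and it could be recovered for 201 of the 202 peaks, all but the SUIT2 replicate 2 peak in the SUIT2-only region at 128901992. The median ratio in the domain was 1.53 and 1.42 in BxPC3, 1.38 and 1.51 in Panc327, with 1.5 and 1.38 in SUIT2. Over all peaks of the same lists it was 1.23 and 1.08, 1.26 and 1.34, and 1.08 and 1.00. The domain was above its list in all 6 libraries, and the lines overlapped. Single peaks reached higher, up to 5.09 in BxPC3 replicate 1 at 128217336 to 128220146, at the edge of the far upstream block, where its fold was 8.70 against 26.3 in BxPC3 replicate 2. At the MYC peak the ratio was 1.53 and 2.95 in BxPC3, 1.46 and 1.77 in Panc327, with 1.89 and 1.05 in SUIT2. A fold there is divided by this background, and the higher SUIT2 fold, 156.6, came with the lower of these ratios. How far the background bears on the folds was not tested.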

How the data were processed

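Chromatin of 3 lines was profiled for H3K27ac, with inputs. Per the submitters' processing notes, the tools were bcl2fastq 1.8.4, Bowtie 1.1.1 and MACS2, and the build hg19; version and settings of MACS2 are not given in the sources used here. There was 1 narrowPeak list per H3K27ac library, so the H3K27ac replicates were not pooled; the use of the inputs is not stated. A deposited fold is a ratio, the pile-up of reads at the summit over the local background. The authors' significance values, a −log10 p-value and a −log10 of the q-value per peak, served to filter and to rank peaks within a list. The summit offset, in bp from the peak start and of other unit in the deposited lists, gave summit positions.

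Chromosomes 1 to 22 and X were used. Covered bases, Jaccard indices and merged regions (at least 1 bp shared) were computed with Python 3.11.15, numpy 2.4.6, pandas 2.3.3 and scipy 1.17.1, and figures with matplotlib 3.10.9. MACS2 is known to add 1 to both sides of the fold and to take p from the upper Poisson tail. Solving these for whole reads, within 0.001 of the −log10 p, worked for 99.9 to 100% of the peaks of each list, with fitted scales of 0.752 and 0.652 for the BxPC3 pile-ups. Tests on simulated data recovered the classes and backgrounds. The simulated folds and p-values were made with these same formulas, so the tests check the solving and not whether the authors' settings follow the formulas. A region's part is that of its strongest summit, a peak's that of its summit.

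The domain, its members and the lists were chosen with earlier results of these data known. Named regions were, by rule, the peaks at the MYC and PVT1 starts, the widest and strongest peaks of each list, regions with a peak in all 6 libraries, and line-only and missing regions (up to 10 per line by covered bases); the regions in which the libraries of a line disagreed were picked after their values were seen. Gene positions are the approximate ones of the rule. No hg19 annotation or genome was at hand, so other genes, exons and marker genes were not placed, no coordinates were converted, and no sequence is printed. Alternatives were a −log10 q of at least 20, an equal number of peaks per list (27776), 50% cover of a region, part borders 2 kb before the genes, the domain cut by 100 kb at each end, and leaving out each library; the last was added for the shared bases after the data were seen.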

Additional observations from a re-analysis of the deposited data

How the results depend on the processing

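No paired analysis was possible because no result comes from a test and the replicate numbers name libraries only. At a −log10 q of at least 20 the mean number of peaks in the domain went from 36.5 to 30.5 in BxPC3, from 31.5 to 20 in Panc327 and from 33.0 to 20.5 in SUIT2, and SUIT2 covered length from 85.8 to 80.4 kb; there were then 1 BxPC3-only, 1 Panc327-only and 6 SUIT2-only regions. With each list cut to an equal number of peaks, BxPC3 had 30.0 and SUIT2 26.0 peaks, SUIT2 covered 83.3 kb, and 1 BxPC3-only and 8 SUIT2-only regions were found. With 50% of a region covered, 2 regions had all 6 libraries and 0 were missing from SUIT2. With the domain cut by 100 kb at each end, BxPC3 had 28.5 and SUIT2 28.0 peaks, covering 38.2 and 52.7 kb. This cut removes the far upstream block and the regions 488.3, 482.0 and 469.8 kb before MYC. The BxPC3 local background ratio went from 1.47 to 1.38. Upstream cover was then 17.6 kb in BxPC3, 18.6 kb in Panc327 and 18.6 kb in SUIT2. Leaving out single libraries gave 2 to 5 BxPC3-only, 3 to 7 Panc327-only and 13 to 18 SUIT2-only regions. It gave 0 to 2 regions missing from BxPC3 and 0 to 1 missing from Panc327. No shares over all chromosomes stand beside the region counts under these alternatives. The mean covered length in SUIT2 was above that in BxPC3 in all 4 parts under every alternative run. The depth-dependent floor differed between lists: the lowest called pile-up was 9.60 times the genome-wide background in Panc327 replicate 1 and 5.82 times in SUIT2 replicate 2, and which regions it kept from being called was not tested.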
